A study of Gorilla gorilla gorilla with 13 samples.

Results

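Basal intermediate progenitors (bIP) were compared with apical radial glia (aRG), the stem cells they descend from, in organoids made of gorilla cells. The libraries were chosen by the cell type their labels name, which gave 3 bIP and 4 aRG libraries out of 13 in the series, and all 18137 genes of the deposited human-build (hg38) count table were read in them. Every library came from cerebral organoids, 3-dimensional brain-like cultures, grown from GC1, the single gorilla induced pluripotent stem cell line of the series, and taken at week 8 give or take 3 days. The labels name no treatment or genetic change for either population. Populations were separated by fluorescence-activated cell sorting, with sort antigens not given in the sources used here. RNA of 10000 cells per library was extracted with a kit made for fixed material and turned into Smart-seq2 cDNA, which is primed on the poly(A) tail and was amplified over 12 to 17 cycles. Whether replicate libraries stem from independent cultures is not in the labels, and each p-value therefore reflects library-to-library spread that may be technical. The other 6 libraries, 4 of basal radial glia (bRG) and 2 of BCL11B-positive neurons (N), helped to estimate that spread and are cited where bIP differed from them.

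As background, apical radial glia line the ventricle of the developing cortex, hold on to each other by apical adherens junctions and divide at the ventricular surface. Notch signalling between neighbours keeps HES genes on and proneural genes down in them. Basal intermediate progenitors are daughters that have left that surface, switch on the T-box factor EOMES and divide away from the ventricle, mostly to give pairs of glutamatergic neurons. Cajal-Retzius cells are early neurons of the cortical surface that secrete RELN and come largely from the cortical hem and other borders of the cortex.

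Depth was alike in both populations. Total hg38 counts ran from 6181720 to 10812093 in bIP and from 5884697 to 10313114 in aRG, and 17224 to 17557 genes in bIP against 17065 to 17556 in aRG had a count. On the first principal component of the 1000 most variable genes the bIP libraries scored 50.38 to 50.82 and the aRG libraries -51.3 to -34.94, while the neurons lay at 64.9 and 66.64, on the bIP side. Library 3 of bRG stood apart on the second component at -67.75. Levels below are CPM, counts per 1000000 counts after TMM scaling, and differences are log2 fold changes of bIP over aRG, in which 1 stands for a doubling. A gene was called when its Benjamini-Hochberg adjusted p in edgeR's quasi-likelihood test over all genes was under 0.05. Numbers in parentheses after gene names are log2 fold changes unless another quantity is named.

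The labels were first checked against marker genes. SLC1A3, a glutamate transporter of radial glia, had 12.4, 14.1 and 18.6 CPM in the bIP libraries, against 811, 979, 1036 and 1363 CPM in the aRG libraries. PAX6, a transcription factor of cortical radial glia, had 17.8, 16.2 and 20.1 CPM in bIP and 889, 672, 532 and 598 CPM in aRG. Both genes were far lower in all 3 bIP libraries than in any aRG library. TBR1, a T-box factor of newly made deep-layer neurons, had 335, 375 and 236 CPM in bIP and 47.0, 31.3, 21.6 and 14.3 CPM in aRG, with no overlap (3.47, SE 0.36, edgeR adjusted p = 1.97e-06). EOMES, the defining marker of intermediate progenitors, did not follow the bIP label. It had 98.2, 127 and 31.0 CPM in bIP, against 245, 158, 39.9 and 129 CPM in aRG, so the ranges overlapped and no rise was called (-0.74, SE 0.47, adjusted p = 0.345). It averaged 85.3 ± 49.1 CPM in bIP and 367 ± 92.9 CPM in bRG (SD, n = 3 and 4). Since no bIP library held more EOMES than the highest aRG library, the population is called bIP by its label only. In these bulk libraries fewer cells of a type and less RNA per cell cannot be told apart.

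**Figure D1:**
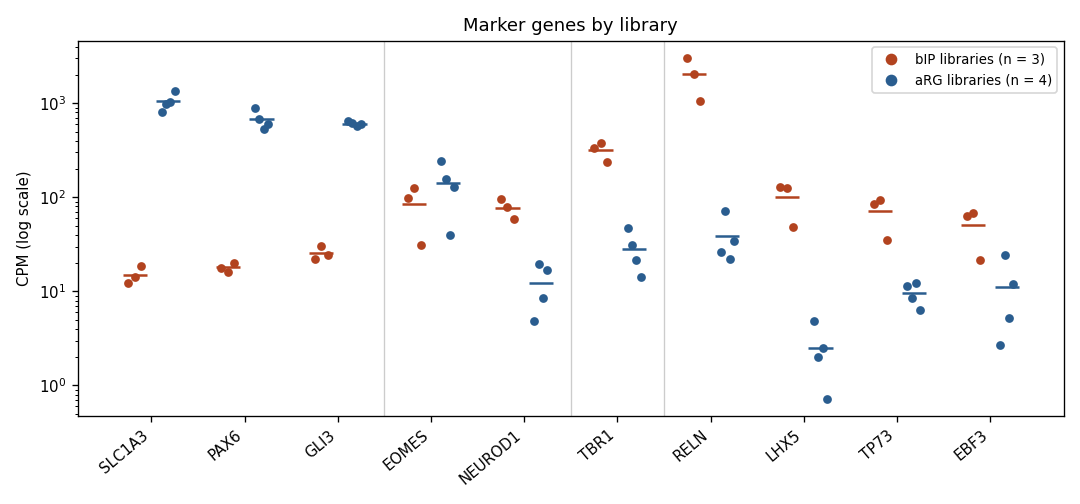
CPM on a log axis of 10 marker genes in each library, with bIP libraries left of aRG libraries and a line at each group mean. SLC1A3, PAX6 and GLI3 lie lower in every bIP library than in any aRG library, TBR1, RELN, LHX5 and TP73 lie higher in every bIP library, and EBF3 and EOMES overlap.

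Genes of the intermediate progenitor list were called in both directions. Of 24 genes tested there, 5 rose and 3 fell in bIP (33.3% called), with a median of -0.42. Of all 16804 tested genes 18.4% were called, 8.47% higher and 9.98% lower. Summed over the list, the level was 1323, 1668 and 1219 CPM in bIP libraries 1 to 3. It was 1268, 1167, 914 and 1202 CPM in aRG libraries 1 to 4, so the ranges overlapped. NEUROD1, a bHLH factor that acts late in the intermediate state, had 95.0, 78.6 and 59.4 CPM in bIP, against 4.88, 19.6, 8.43 and 16.8 CPM in aRG (2.64, SE 0.42, edgeR adjusted p = 1.62e-04). The earlier-acting NEUROG1 had 0.149, 3.08 and 3.87 CPM in bIP and 5.96, 18.7, 28.1 and 22.3 CPM in aRG (-2.94), and NEUROD4 fell too (-2.64). SSTR2, a somatostatin receptor found on intermediate progenitors and young neurons, rose (1.76), as did NRN1 (1.85). The 16 members without a call included, beside EOMES, INSM1 (-0.48, adjusted p = 0.762) and HES6 (-0.74, adjusted p = 0.201). The Notch ligand DLL1 (-0.64, adjusted p = 0.166) was not called either. The count called higher in the intermediate progenitor list was 3 without bIP library 2. In the intermediate progenitor list the number called lower was 5 without bIP library 2. The log2 fold change of NEUROD4 was -3.36 without bIP library 1. Called by edgeR with 1 library left out was HES6 without bIP library 2 (-1.29, adjusted p = 0.0315).

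More Cajal-Retzius genes rose than fell in bIP, and RELN, LHX5, TP73 and EBF3 were highest in bIP libraries 1 and 2. Of 16 genes tested on that list, 9 rose and 1 fell (median 2.02). RELN had 3049.6, 2047 and 1048 CPM in bIP and 26.2, 71.7, 21.8 and 34.7 CPM in aRG (5.73, SE 0.49, edgeR adjusted p = 2.31e-07). LHX5, a LIM homeobox factor of the cortical hem and of Cajal-Retzius cells, had 129, 124 and 48.6 CPM in bIP and 4.88, 2.00, 2.49 and 0.722 CPM in aRG. TP73, a transcription factor expressed by hem-derived Cajal-Retzius cells, had 85.0, 93.2 and 35.1 CPM in bIP and 11.4, 8.42, 12.4 and 6.29 CPM in aRG. EBF3, another factor of these cells, had 62.9, 68.4 and 21.5 CPM in bIP and 2.71, 24.5, 5.17 and 11.9 CPM in aRG. In each of these genes library 3 was the lowest of the bIP libraries, as it was for EOMES. It lay above every aRG library in RELN, LHX5 and TP73, and below aRG library 2 in EBF3. CALB2, also called higher (3.78), went the other way among the bIP libraries. It had 129, 83.9 and 153 CPM in bIP and 19.5, 8.42, 3.35 and 5.05 CPM in aRG, so bIP library 3 was the highest. Summed over the list, the level was 4263, 3291 and 1754 CPM in bIP libraries 1 to 3 and 287, 394, 262 and 269 CPM in aRG libraries 1 to 4. RELN alone made up most of that sum in each bIP library. The rise was not shared by all members: CALB1 fell (-3.09), and the chemokine receptor CXCR4 had 0.61 (adjusted p = 0.368). Leaving out 1 library ended the edgeR call of EBF3 (adjusted p = 0.0571 to 0.102 without bIP library 1 or 2 or aRG library 1, 3 or 4). Without aRG library 2 EBF3 was at 2.93.

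Across the transcriptome, edgeR called 3100 genes, 1423 higher and 1677 lower in bIP, and 4768 had an unadjusted p under 0.05. Of the calls, 3037 had no overlap between the populations in CPM, while over all tested genes bIP lay wholly above aRG in 15.7% and wholly below in 16.7%. The falls ran deeper than the rises: 97 genes were called more than 8-fold higher and 364 more than 8-fold lower, and beyond 32-fold there were 4 higher and 54 lower. In the second deposited table, counted on the gorilla build gorGor6, 3102 of 38520 tested genes were called (8.05%), 3.74% higher and 4.31% lower, and of 3021 hg38 calls tested there 2345 were called with the same sign (77.6%). The median change over all tested genes of the hg38 table was -0.035.

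**Figure D2:**
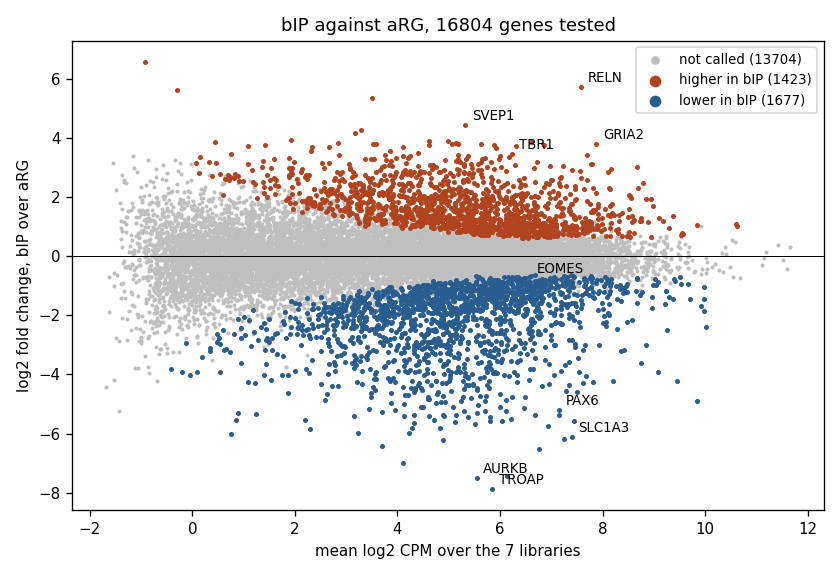
Log2 fold change of bIP over aRG against the mean log2 CPM over the 7 libraries for all 16804 tested genes, with the 1423 genes called higher and the 1677 called lower in colour. The called falls reach further from 0 than the called rises, and EOMES lies among the genes not called.

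After RELN, the largest rises were these. SVEP1, a large extracellular matrix protein, had 327, 270.3 and 126 CPM in bIP and 7.41, 16.3, 10.7 and 10.1 CPM in aRG (4.43, SE 0.71, edgeR adjusted p = 1.73e-04). SPHKAP, an anchoring protein for protein kinase A, had 127, 115 and 178 CPM in bIP and 23.1, 4.42, 9.29 and 1.65 CPM in aRG. GRIA2, the AMPA receptor subunit that limits calcium entry, had 923, 1107 and 1408 CPM in bIP and 137, 96.6, 62.5 and 32.7 CPM in aRG. In SVEP1, SPHKAP and GRIA2 the lowest bIP library lay well above the highest aRG library. Absence of overlap was a condition of the choice, so it is no separate evidence for these rises. Of similar size were PTPRN (3.89), a protein of dense-core vesicles, CAMKV (3.85), the dynein adaptor BICDL1 (3.82), PLXND1 (3.80), a semaphorin receptor, GRM2 (3.78), UNC79 (3.77) of the sodium leak channel complex, CACNA1E (3.75) and ELMOD1 (3.70). By the size of the adjusted p the leading rises were ARPP21, a cyclic AMP-regulated phosphoprotein of neurons (3.81, edgeR adjusted p = 1.27e-07), PLXND1, CACNA1E, SHISA7 (3.10) and PSD2 (3.29). Log2 fold changes with 1 library left out moved to 4.76 in SPHKAP without aRG library 1 and 4.67 in PTPRN without aRG library 1.

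Among called genes chosen by the same limits on level and overlap, the deepest falls were these. TROAP, a spindle-associated protein, had 1.64, 1.38 and 4.85 CPM in bIP and 543, 541, 471 and 1001 CPM in aRG (-7.88, SE 0.71, edgeR adjusted p = 4.24e-07). AURKB, the kinase of the chromosomal passenger complex, had 0.747, 2.12 and 4.58 CPM in bIP and 448, 386, 365 and 689 CPM in aRG. NR2E1, a nuclear receptor that maintains neural stem cells, had 2.99, 0.530 and 1.89 CPM in bIP and 104, 102, 113 and 126 CPM in aRG. None of these came near the aRG range in any bIP library, but absence of overlap was again a condition of the choice. The helicase gene PIF1 (-7.43), the minus-end kinesin KIFC1 (-7.00), the kinetochore gene NUF2 (-6.53), FAM111A (-6.21), which acts at replication forks, PIMREG (-5.82), the spindle gene DLGAP5 (-5.81) and the kinase PBK (-5.63) fell by similar amounts. NFATC4 (-4.47) and GLI3 (-4.57) were among the 5 falls with the smallest adjusted p. Log2 fold changes with 1 library left out moved to -8.72 in TROAP without bIP library 3, -8.29 in AURKB without bIP library 3, -7.60 in KIFC1 without bIP library 3 and -5.01 in PBK without aRG library 4.

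Radial glia genes fell almost without exception. Of 25 genes tested there, 23 fell and none rose by edgeR or DESeq2 (0 higher at an unadjusted p under 0.05), with a median of -3.28. HES1, a repressor kept on by Notch, had 7.17, 2.01 and 2.43 CPM in bIP and 108, 128, 100.2 and 75.1 CPM in aRG (-4.77). The cytoskeletal gene VIM had 40.5, 38.0 and 31.1 CPM in bIP and 528, 478, 271 and 607 CPM in aRG (-3.69) and is named, like HMGA2 (-4.20) and FABP7 (-3.45), after its values were seen. CPM did not overlap between the populations in HES1 and VIM. The homeobox factor LHX2 (-1.80) and SOX9 (-2.02) fell less. The members without a call were FAM107A, a marker of basal radial glia (-1.61, adjusted p = 0.250), and EMX2 (-0.82, adjusted p = 0.118). Summed over the list, the level was 1333, 1424 and 1418 CPM in bIP libraries 1 to 3 and 8434, 8394, 7213 and 9353 CPM in aRG libraries 1 to 4. HES1 had -5.52 without bIP library 1.

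Signalling genes were read by pathway, since radial glia depend on several. Most called genes of the Hedgehog list fell. Of 16 genes tested of the Hedgehog pathway, 6 fell and 1 rose (median -0.28). Log2 fold changes over the list ran from -4.57 to 3.28, and the gene that rose is not among those named here. GLI3, the main repressor-forming GLI factor of the dorsal telencephalon, had 22.2, 30.1 and 24.3 CPM in bIP and 650.2, 612, 566 and 594 CPM in aRG (-4.57, SE 0.28, edgeR adjusted p = 2.52e-08). The co-receptors BOC (-3.21), GAS1 (-3.66) and CDON (-1.57), the signal transducer SMO (-2.11) and GLI2 (-2.90) fell with it. GLI3 did not overlap between the populations. The receptor PTCH1, also a target of the pathway, had -0.46 (adjusted p = 0.382). The ligand SHH was low, with overlapping values of 3.28, 1.91 and 4.22 CPM in bIP and 1.63, 4.85, 0.957 and 2.89 CPM in aRG.

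In the FGF and ERK feedback list 4 of 25 tested genes rose and 9 fell (median -0.51), with receptors on the low side. FGFR3 had 30.0, 27.5 and 27.4 CPM in bIP and 243, 233, 263 and 272 CPM in aRG (-3.16), and FGFR2 (-3.07) fell as well. FGFBP3, a secreted FGF-binding protein (-4.03), and ETV5, a transcription factor induced by FGF signalling (-3.51), were lower too. The risers were FLRT2 (2.14), an adhesion protein that binds FGF receptors, the intracellular FGF family member FGF12 (1.83), the ligand FGF9 (1.60) and the phosphatase DUSP4 (1.18). FGF9 had 62.3, 71.1 and 42.9 CPM in bIP and 12.8, 42.4, 10.8 and 11.9 CPM in aRG, with aRG library 2 next to the lowest bIP library. Called higher in the FGF and ERK feedback list were 2 without bIP library 1, bIP library 2, aRG library 1, aRG library 3 or aRG library 4. Without 1 library edgeR no longer called FGF9 (adjusted p = 0.0728 to 0.0983 without bIP library 1 or 2 or aRG library 1, 3 or 4) and DUSP4 (adjusted p = 0.0707 to 0.177 without bIP library 1 or 2 or aRG library 1, 3 or 4). Log2 fold changes with 1 library left out moved to -4.19 in ETV5 without bIP library 1 and 2.31 in FGF9 without aRG library 2.

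Hippo and BMP/TGF-beta genes were next. In the Hippo list 7 of 23 tested genes fell (median -0.49) and 0 rose by edgeR or DESeq2, with 1 higher at an unadjusted p under 0.05. YAP1, the growth-promoting co-activator of the pathway, had 4.18, 7.95 and 4.94 CPM in bIP and 55.1, 53.7, 44.7 and 51.5 CPM in aRG (-3.16, SE 0.36, edgeR adjusted p = 5.13e-06). Its DNA-binding partners TEAD2 (-2.36) and TEAD3 (-1.83) and the upstream kinase STK3 (-2.37) fell too, while TEAD1 had -0.49 (adjusted p = 0.261). Of 34 BMP and TGF-beta genes 8 fell and 0 rose by edgeR or DESeq2 (2 higher at an unadjusted p under 0.05, median -0.52). The ligand BMP7 (-3.65), the receptor BMPR1B (-3.39), the signal transducer SMAD3 (-2.62) and LTBP1 (-2.38), which anchors latent TGF-beta in the matrix, were the falls with the smallest p. YAP1 did not overlap between the populations. Rises were called in both lists under other settings of edgeR: in the Hippo list 1 with the 7 libraries alone, 1 without bRG library 3, 1 with numbers 1 and 2 against 3 and 4 as a term and 2 with a replicate block, and in the BMP and TGF-beta list 2 with the 7 libraries alone and 3 without bRG library 3.

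Of 39 Wnt genes 16 fell and 2 rose (median -0.86). The falls with the smallest p were the repressor TCF7L1 (-4.01), the secreted inhibitor SFRP1 (-5.37) and the receptors FZD2 and FZD8. FZD8 had 3.43, 5.30 and 2.61 CPM in bIP and 149.8, 146, 52.8 and 80.3 CPM in aRG (-4.82), and FZD2 (-3.32) fell as well. WNT7B, a ligand, had 22.2, 9.97 and 5.84 CPM in bIP and 4.52, 4.00, 2.49 and 2.78 CPM in aRG (1.88), and NKD2 (2.14), an inhibitor of Dishevelled, also rose. CPM of FZD8 and WNT7B did not overlap between bIP and aRG. Of 25 Notch genes 9 fell and 2 rose (median -0.53). The receptors NOTCH1 (-2.84) and NOTCH3 (-4.01) fell, and NOTCH2 had 51.4, 49.4 and 66.9 CPM in bIP and 291, 309, 485 and 515 CPM in aRG (-2.84). The ligand JAG2 had 221, 243 and 237 CPM in bIP and 53.8, 72.4, 64.2 and 36.0 CPM in aRG (2.04). JAG1, the sister ligand, fell (-1.18) and was picked out once its values were known. DTX1, a ubiquitin ligase of the pathway, rose (2.25). The effector RBPJ, which every Notch receptor uses, had -0.40 (adjusted p = 0.494). The count called lower in the Wnt pathway list was 10 without bIP library 1 or bIP library 2. The edgeR call was lost with 1 library removed in WNT7B (adjusted p = 0.0708 to 0.255 without bIP library 1 or aRG library 3 or 4), NKD2 (adjusted p = 0.163 without bIP library 2) and JAG1 (adjusted p = 0.0567 to 0.0739 without bIP library 1 or 2).

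**Figure D3:**
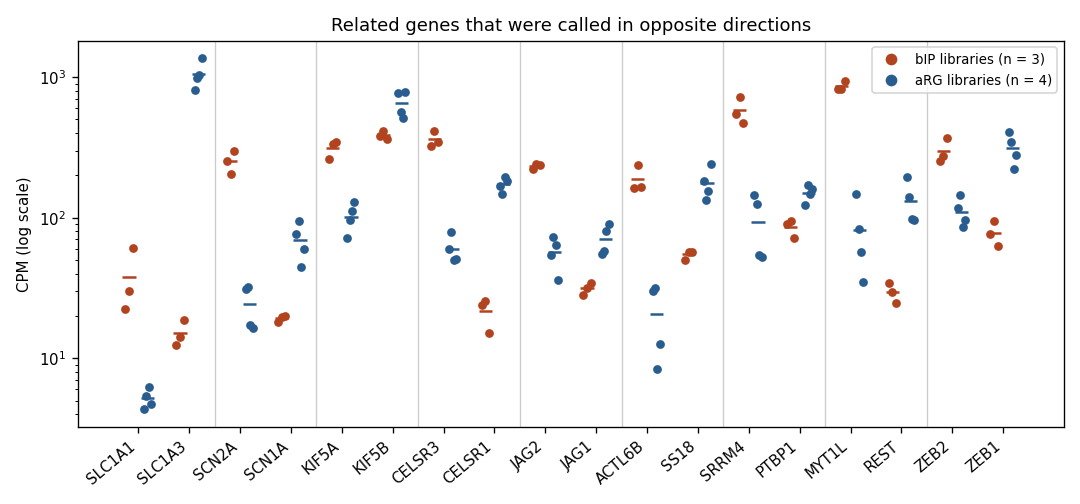
CPM on a log axis of 9 pairs of genes that belong to a common family or process in each library, bIP left of aRG, with a line at each group mean. In each pair the left gene was called higher and the right gene lower in bIP. Pairs were picked for these opposite calls, so the pattern follows from the choice. Relatives without a call, such as ACTL6A and PTBP2, are not drawn.

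Junction and matrix genes were lower in bIP where they were called, with few exceptions. Of 25 genes of apical polarity and junctions 9 fell and 1 rose (median -0.38). CRB1, of the apical Crumbs complex, had 7.91, 10.9 and 15.7 CPM in bIP and 169, 159, 148 and 222 CPM in aRG (-3.91). The junction genes PLEKHA7 (-2.64) and NECTIN3 (-2.32) and the apical membrane protein PROM1 (-4.11) fell too. CDH2, the cadherin of apical adherens junctions, had 396, 413 and 356 CPM in bIP and 827, 675, 570.1 and 758 CPM in aRG, a smaller fall (-0.86, edgeR adjusted p = 0.0255). Both CRB1 and CDH2 were lower in every bIP library than in any aRG library. ARHGEF2, a GTPase activator bound to microtubules, rose (0.95). CTNNB1, the catenin that joins cadherins to the cell cortex, had 0.22 (adjusted p = 0.726). With 1 library removed edgeR lost its call of CDH2 (adjusted p = 0.0561 to 0.0996 without bIP library 1, 2 or 3 or aRG library 1 or 4).

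Of 36 matrix and integrin genes 13 fell and 2 rose (median -0.67). LAMB2, a laminin chain, had 15.5, 15.0 and 12.7 CPM in bIP and 163, 167, 117 and 143 CPM in aRG (-3.36), and the laminin chain LAMA1 (-3.55) fell with it. The lectican BCAN (-4.78) and the collagen-binding integrin ITGA2 (-4.10) were lower as well. ITGA3, a laminin-binding integrin of migrating neurons, had 18.4, 25.4 and 12.7 CPM in bIP and 8.49, 5.85, 4.02 and 5.26 CPM in aRG (1.68), and the lectican NCAN (0.64) rose too. Library by library, LAMB2 and ITGA3 did not overlap between the populations. Markers of mesenchyme moved with the matrix falls: of 15 tested, 4 fell and 1 rose, and their sum was 186 to 247 CPM in bIP and 378 to 651 CPM in aRG. Their part in the matrix result was not tested. In the mesenchyme list the number called lower was 2 without bIP library 1. The mesenchyme list held no called rise without bIP library 2. Called higher in the extracellular matrix and integrin list were 0 without bIP library 2. Removal of 1 library took the edgeR adjusted p above the threshold in ITGA3 (adjusted p = 0.0806 without bIP library 2) and NCAN (adjusted p = 0.0667 to 0.159 without bIP library 1, 2 or 3 or aRG library 1 or 3). The log2 fold change of ITGA2 was -4.74 without bIP library 3.

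Cell cycle genes were read by phase, and mitosis genes fell throughout. Of 48 genes of mitosis 48 fell (median -4.24) and none rose by edgeR or DESeq2, with 0 higher at an unadjusted p under 0.05. NUF2, of the outer kinetochore, had 11.5, 7.32 and 6.38 CPM in bIP and 844, 522, 618 and 1096 CPM in aRG (-6.53, SE 0.41, edgeR adjusted p = 2.55e-08). BUB1, a kinase of the spindle checkpoint, had 14.2, 10.1 and 7.01 CPM in bIP and 283, 215, 253 and 459.6 CPM in aRG (-4.87). MKI67, the proliferation marker, had 10.3, 24.2 and 7.46 CPM in bIP and 1404, 876, 668 and 1137 CPM in aRG (-6.19). The bIP libraries were far below the aRG libraries in all 3 genes, and MKI67 was not called between bIP and the neurons (0.048, edgeR adjusted p = 0.992). The condensin subunit SMC4 (-4.04), the checkpoint kinase BUB1B (-5.63) and the kinetochore scaffold KNL1 (-4.80) fell with them. Without bIP library 2 MKI67 was at -6.85.

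Kinesins parted by function. All 13 tested mitotic kinesins fell (median -5.11), while of 17 kinesins of neuronal transport 7 rose and 2 fell (median 0.65). KIF23, of the cytokinetic midzone, had 5.37, 9.65 and 5.12 CPM in bIP and 315, 165, 189.7 and 352 CPM in aRG (-5.24). The mitotic falls ran from KIFC1 (-7.00) to KIF22 (-2.62). KIF3C, of the kinesin-2 family, had 214, 208 and 141 CPM in bIP and 53.8, 44.5, 40.2 and 57.4 CPM in aRG (1.94). No overlap between bIP and aRG was seen in KIF23 or KIF3C. The heavy chain KIF5A had 263, 332 and 344 CPM in bIP and 71.9, 96.1, 111 and 128 CPM in aRG (1.62), and its widely expressed relative KIF5B had 382, 411 and 361 CPM in bIP and 776, 563, 511 and 779.9 CPM in aRG (-0.77). KIF21B (2.37) and the kinesin-2 adaptor KIFAP3 (2.01) rose too, and KIF13A (-2.11) fell. KIF5C, the third heavy chain, had 0.48 (adjusted p = 0.374). Leaving out 1 library ended the edgeR call of KIF5B (adjusted p = 0.0827 to 0.114 without bIP library 1, 2 or 3 or aRG library 1 or 4).

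DNA replication genes fell in 44 of 52 cases (median -2.14) and rose in none by edgeR or DESeq2 (0 higher at an unadjusted p under 0.05). CDC45, of the replicative helicase, had 3.14, 4.77 and 4.04 CPM in bIP and 139.8, 83.2, 127 and 146 CPM in aRG (-4.95). The topoisomerase TOP2A (-5.59), the origin firing factor MCM10 (-3.92) and the fork checkpoint mediator CLSPN (-4.35) fell as well. Members that were not called included ORC3 (-0.10, adjusted p = 0.885) and ORC4 (-0.13, adjusted p = 0.926), subunits of the origin recognition complex. Among regulators of the G1 phase 12 of 26 fell (median -0.92) and none rose by edgeR or DESeq2 (1 higher at an unadjusted p under 0.05). They included the E2F factors E2F1 (-3.59), E2F7 (-3.64) and E2F8 (-3.56) and the kinases CDK2 (-3.00) and CDK6 (-2.40). CDKN1A, which inhibits cyclin-dependent kinases, had 37.2, 32.4 and 24.7 CPM in bIP and 26.0, 37.4, 62.8 and 48.7 CPM in aRG (-0.48, adjusted p = 0.462), and the pocket protein RB1 had -0.38 (adjusted p = 0.291). E2F1 had -4.25 without bIP library 3.

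Genes mutated in primary microcephaly, most of which serve the centrosome and spindle, fell in 12 of 18 cases (median -1.89) and rose in none by edgeR or DESeq2 (0 higher at an unadjusted p under 0.05). ASPM, of the spindle pole, had 14.5, 16.4 and 8.09 CPM in bIP and 1015, 505, 520.3 and 736 CPM in aRG (-5.74). The pole protein WDR62 (-3.29), the centriole duplication genes CEP152 (-3.14), STIL (-2.70) and SASS6 (-1.43), the cytokinesis kinase CIT (-2.92) and CDK5RAP2 (-0.96) fell as well, the last of these the least. MCPH1 (-0.25, adjusted p = 0.598), PCNT (0.063, adjusted p = 0.922) and NIN (0.21, adjusted p = 0.649) were not called. Of 32 genes of DNA break repair 15 fell (median -1.01) and none rose by edgeR or DESeq2 (0 higher at an unadjusted p under 0.05). BRCA1 had 13.7, 9.33 and 5.39 CPM in bIP and 127, 111, 108 and 128 CPM in aRG (-3.65), and its partners BARD1 (-4.02) and BRCA2 (-3.82) and the Fanconi anaemia gene FANCD2 (-4.23) fell too. Values of ASPM and BRCA1 lay far apart in the populations. The kinase ATM (-0.10, adjusted p = 0.837) and XRCC6, which binds broken ends (-0.55, adjusted p = 0.136), were not called. Without 1 library edgeR no longer called SASS6 (adjusted p = 0.0571 without bIP library 1) and CDK5RAP2 (adjusted p = 0.0562 without bIP library 3).

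**Figure D4:**
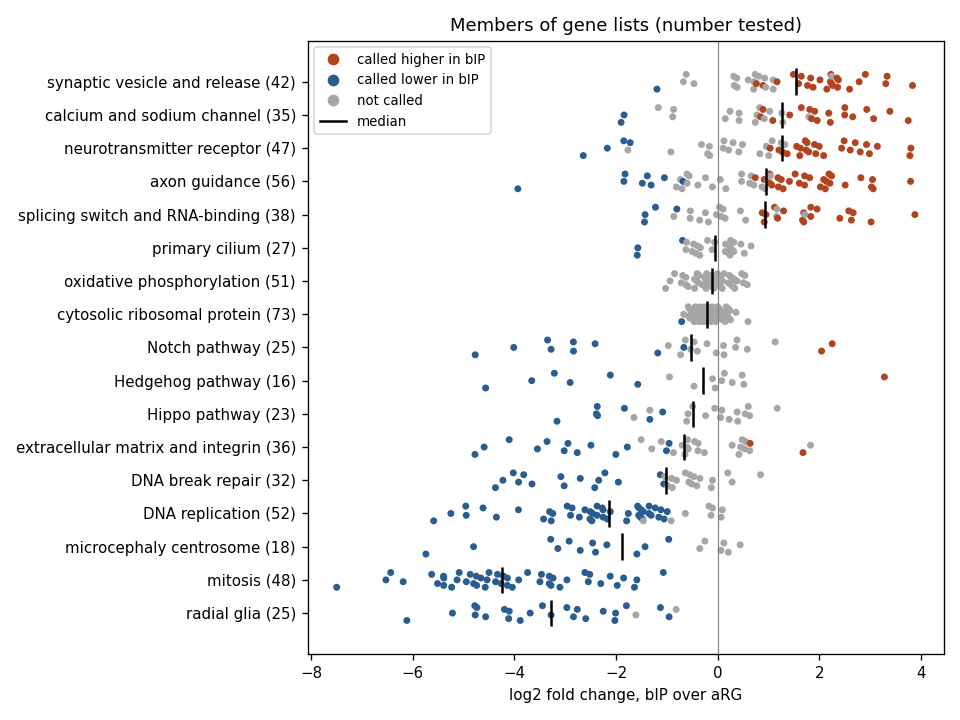
Log2 fold change of bIP over aRG for each tested member of 17 gene lists, with the median of each list as a black line. All 48 mitosis genes were called lower, the medians of the vesicle and channel lists lie to the right of 0, and the members of the ribosomal and respiratory chain lists lie near 0.

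Transcription factors divided within families. Of 26 bHLH factors and partners 6 rose and 7 fell. NEUROD6, of postmitotic glutamatergic neurons, had 641, 669.9 and 804 CPM in bIP and 129, 128, 161 and 163 CPM in aRG (2.28). NEUROD2 (2.98) and BHLHE22 (1.96), which act at the same stage, rose as well. The inhibitors of bHLH factors differed among themselves: ID2 had 124, 156 and 329 CPM in bIP and 36.1, 45.0, 69.4 and 53.8 CPM in aRG (1.99), while ID4 (-2.97), HES1 (-4.77) and HES5 (-3.28) fell. In NEUROD6 and ID2 bIP and aRG did not overlap, and ID2 was highest in bIP library 3. TCF4, the E-protein partner of proneural factors, had -0.37 (adjusted p = 0.502). The count called lower in the neuronal bHLH factors list was 11 without bIP library 2. The edgeR call was lost with 1 library removed in BHLHE22 (adjusted p = 0.0614 without bIP library 2).

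Of 16 SOX and NFI factors 2 rose and 6 fell (median -0.32). The neural progenitor factor SOX1 had 2.69, 3.18 and 4.22 CPM in bIP and 79.7, 83.5, 59.2 and 78.4 CPM in aRG (-4.46), and its relatives SOX2 (-4.78) and SOX21 (-4.33) fell with it. SOX5, a factor of deep-layer neurons, had 370.0, 329 and 487 CPM in bIP and 221, 152, 168 and 203 CPM in aRG (1.09), while SOX6 fell (-2.83). Neither SOX1 nor SOX5 overlapped between the populations. SOX4 (1.01, adjusted p = 0.0543) and SOX11 (0.67, adjusted p = 0.100), which promote neuronal differentiation, were not called. NFIB rose (1.02), whereas NFIA had 0.15 (adjusted p = 0.768). In the SOX and NFI factors list the number called higher was 4 without bIP library 3. The log2 fold change of SOX21 was -5.05 without bIP library 2. Called by edgeR with 1 library left out were SOX4 without bIP library 3 (1.29, adjusted p = 0.0217), SOX4 without aRG library 2 (1.19, adjusted p = 0.0396) and SOX11 without bIP library 3 (0.91, adjusted p = 0.0362).

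Of 13 deep-layer genes 5 rose and 2 fell, and of 13 upper-layer genes 1 rose and 4 fell. BCL11B, a factor of subcerebral neurons by which the neurons of the series are named, had 241, 182 and 151 CPM in bIP and 64.0, 52.4, 34.9 and 40.1 CPM in aRG (2.00, edgeR adjusted p = 1.28e-04). ZFPM2 (1.18), of corticothalamic neurons, and LMO3 (1.70) rose with it. FOXP2 had 10.3, 15.9 and 9.44 CPM in bIP and 44.4, 28.5, 78.6 and 77.8 CPM in aRG (-2.27), and FOXP1 (-2.23) fell too. The populations did not overlap in BCL11B and FOXP2. POU3F2, an upper-layer and progenitor factor, fell (-2.21), as did POU3F3 (-1.80) and CUX1 (-1.08). Log2 fold changes with 1 library left out moved to 1.07 in LMO3 without bIP library 3, -2.94 in POU3F2 without bIP library 2 and -2.51 in POU3F3 without bIP library 2.

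Of 19 factors that pattern cortical areas 11 fell and 1 rose (median -1.29). NR2F1 and NR2F2, related nuclear receptors of caudal and ventral territories, parted: NR2F1 had 224, 236 and 169 CPM in bIP and 582, 469, 414 and 510.5 CPM in aRG (-1.24). NR2F2 had 176, 149.8 and 54.9 CPM in bIP and 57.5, 54.5, 45.6 and 36.9 CPM in aRG (1.38, edgeR adjusted p = 0.0164). Library 3 of bIP lay just below the top aRG library in NR2F2, and NR2F1 did not overlap. OTX1 (-2.54), DMRTA1 (-2.60), ZIC5 (-1.92) and EMX1 (-1.16) fell. With 1 library removed edgeR lost its call of NR2F2 (adjusted p = 0.0752 to 0.120 without bIP library 1 or 2) and DMRTA1 (adjusted p = 0.0669 to 0.132 without bIP library 1 or 2 or aRG library 2 or 4). Without bIP library 3 DMRTA1 was at -3.54.

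Chromatin and RNA regulators that change as neurons form were called in both directions. Of 20 subunits of the BAF chromatin remodeller 5 rose and 2 fell. ACTL6B, the neuronal subunit, had 163, 237 and 166 CPM in bIP and 30.2, 31.5, 8.43 and 12.7 CPM in aRG (3.20, SE 0.47, edgeR adjusted p = 7.08e-05). ACTL6A, its progenitor counterpart, had 23.1, 31.6 and 43.8 CPM in bIP and 33.2, 37.0, 36.4 and 80.5 CPM in aRG and was not called (-0.51, adjusted p = 0.478). ACTL6B did not overlap between the populations and ACTL6A did, with aRG library 4 the highest. The neuronal subunit DPF1 rose (1.99) and the progenitor subunits PHF10 (-0.95) and SS18 (-1.70) fell. Of 37 histone and DNA methylation genes 4 rose and 9 fell. PRDM16, which acts in radial glia, had 6.72, 12.1 and 7.91 CPM in bIP and 97.0, 119, 147 and 124 CPM in aRG (-3.77), whereas the relative PRDM8 had 52.9, 89.0 and 61.1 CPM in bIP and 11.2, 16.6, 5.84 and 5.67 CPM in aRG (2.80). Both PRDM genes were without overlap. The deacetylase HDAC1 (-1.55) and the DNA demethylase TET1 (-1.63) fell, and the histone demethylase KDM6B (1.38) rose. Called higher in the histone and DNA methylation list were 2 without bIP library 2. Removal of 1 library took the edgeR adjusted p above the threshold in PHF10 (adjusted p = 0.0615 to 0.172 without bIP library 1 or 2 or aRG library 1, 3 or 4) and KDM6B (adjusted p = 0.0556 without bIP library 2).

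Of 38 splicing and RNA-binding genes 18 rose and 4 fell (median 0.93). SRRM4, which drives the inclusion of neuronal microexons, had 543, 726 and 474 CPM in bIP and 144, 125, 54.3 and 52.8 CPM in aRG (2.63). PTBP1, the repressor of neuronal exons in progenitors, had 90.8, 94.6 and 72.1 CPM in bIP and 122, 170.4, 146 and 160.2 CPM in aRG (-0.80, edgeR adjusted p = 0.0118), and its neuronal relative PTBP2 had 0.071 (adjusted p = 0.922). RBFOX2 (1.96), RBFOX3 (2.67) and CELF4 (2.58) rose, and the progenitor RNA-binding genes MSI1 (-1.44), QKI (-1.22) and IGF2BP3 (-1.43) fell. Of 17 REST-related repressors 5 rose and 2 fell. REST, which silences neuronal genes outside neurons, had 34.5, 29.8 and 24.8 CPM in bIP and 193, 141, 98.6 and 96.2 CPM in aRG (-2.16). MYT1L, a repressor of non-neuronal genes, had 820.0, 824 and 941 CPM in bIP and 148, 83.6, 57.4 and 35.2 CPM in aRG (3.41). No overlap was found in SRRM4, PTBP1, REST and MYT1L. The zinc-finger homeobox relatives parted, with ZEB2 (1.43) up and ZEB1 (-2.01) down, and ST18 (2.07) and SCRT2 (2.11) rose. The count called lower in the splicing switch and RNA-binding list was 2 without bIP library 3. Leaving out 1 library ended the edgeR call of PTBP1 (adjusted p = 0.0725 without bIP library 3), MSI1 (adjusted p = 0.0517 without bIP library 3) and QKI (adjusted p = 0.0524 to 0.0585 without bIP library 1 or 2).

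Neuronal genes rose as a broad group. Of 28 pan-neuronal genes 20 rose (median 1.72) and none fell by edgeR or DESeq2, with 0 lower at an unadjusted p under 0.05. STMN2, a tubulin-binding protein of growth cones, had 783, 649 and 809 CPM in bIP and 139, 285, 64.7 and 122 CPM in aRG (2.29). SNAP25, of the vesicle fusion machinery, had 126, 115 and 229 CPM in bIP and 34.0, 14.4, 16.0 and 26.9 CPM in aRG (2.78). Each bIP library exceeded each aRG library in STMN2 and SNAP25. NSG2 (2.91) and MAPT (2.67) rose too. ELAVL3, an RNA-binding protein, had 1.16 (adjusted p = 0.0973). The aRG libraries held RNA of these genes as well.

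Of 56 axon guidance genes 28 rose and 8 fell (median 0.96). DCC, a netrin receptor, had 243, 318 and 292 CPM in bIP and 54.9, 63.1, 53.1 and 28.8 CPM in aRG (2.51). The repellent ligand SLIT1 (3.06) and the adhesion protein NFASC (3.03) rose as well. The falls included receptors and ligands: EPHA2 had 2.39, 3.71 and 1.44 CPM in bIP and 52.4, 38.8, 32.6 and 30.1 CPM in aRG (-3.93), and the semaphorins SEMA5A (-1.82) and SEMA5B (-1.48), the co-receptor NRP1 (-1.05) and the SLIT receptor ROBO2 (-0.68) were lower. In 47 genes of synaptic adhesion and scaffolds 21 rose and 2 fell (median 0.99). NRXN3, a presynaptic neurexin, had 50.3, 55.4 and 60.5 CPM in bIP and 134, 97.5, 201 and 149.6 CPM in aRG (-1.39), without overlap, and the neurexin partner NLGN1 (-1.52) fell. SLITRK1 (3.75) and PTPRD (2.13) rose. In the axon guidance list the number called lower was 5 without bIP library 1. Without 1 library edgeR no longer called ROBO2 (adjusted p = 0.0744 to 0.182 without bIP library 1 or 3 or aRG library 1, 2 or 4) and NLGN1 (adjusted p = 0.0531 without bIP library 2).

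Synaptic release genes rose in 24 of 42 cases and fell in 1 (median 1.54). SLC17A7, a vesicular glutamate transporter, had 156, 177 and 145 CPM in bIP and 31.3, 24.1, 14.9 and 15.1 CPM in aRG (2.91). UNC13A, which primes vesicles, had 244, 215 and 191 CPM in bIP and 13.6, 47.4, 10.7 and 14.5 CPM in aRG (3.33), with aRG library 2 nearest to bIP. The vesicle SNARE VAMP1 (-1.19) was the single fall. Of 47 receptor genes 25 rose and 4 fell (median 1.27). CNR1, the cannabinoid receptor, had 259, 309 and 402 CPM in bIP and 59.3, 50.2, 59.2 and 61.7 CPM in aRG (2.49). GABRG1, a GABA-A receptor subunit, had 7.76, 2.97 and 8.90 CPM in bIP and 26.2, 19.4, 44.6 and 73.3 CPM in aRG (-2.64). Across SLC17A7, UNC13A, CNR1 and GABRG1 no bIP library fell within the aRG range. The kainate receptor GRIK3 (2.93) rose and the metabotropic glutamate receptor GRM3 (-1.85) fell, against the rise of its relative GRM2. The edgeR call was lost with 1 library removed in VAMP1 (adjusted p = 0.0506 to 0.107 without bIP library 1 or aRG library 4). UNC13A had 4.07 without aRG library 2.

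Ion channel genes rose in number, with a few falls. Of 35 calcium and sodium channel genes 18 rose and 2 fell (median 1.26). CACNA1E, of R-type calcium channels, had 426, 523 and 624 CPM in bIP and 48.2, 48.1, 32.9 and 26.9 CPM in aRG (3.75, edgeR adjusted p = 9.74e-08). SCN2A, the sodium channel of young axons, had 254, 204 and 299 CPM in bIP and 31.3, 32.0, 17.3 and 16.3 CPM in aRG (3.39), and SCN1A had 18.1, 19.7 and 20.0 CPM in bIP and 77.0, 95.1, 44.2 and 60.3 CPM in aRG (-1.84). SCN3B (3.07) and CACNA1C (2.50) rose. Of 55 potassium channel genes 23 rose and 2 fell (median 1.09). KCNJ3 had 20.3, 33.1 and 38.5 CPM in bIP and 1.63, 3.85, 5.07 and 0.722 CPM in aRG (3.42), and its partner in G-protein-gated channels, KCNJ6 (2.82), rose with it. KCNJ10, the inward rectifier of glia, had 5.67, 5.83 and 5.48 CPM in bIP and 78.4, 51.7, 56.7 and 67.8 CPM in aRG (-3.49). Both inward rectifiers and both sodium channels were free of overlap between bIP and aRG. Called higher in the potassium channel list were 15 without bIP library 2 and 14 without bIP library 1.

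Transporters changed over within families. Of 36 amino acid and ion transporters 12 rose and 7 fell (median 0.15). SLC1A1, the neuronal relative of SLC1A3, had 22.5, 30.1 and 60.9 CPM in bIP and 4.34, 5.42, 6.22 and 4.74 CPM in aRG (2.86). SLC12A5, the chloride extruder of neurons, had 26.0, 33.5 and 42.5 CPM in bIP and 6.50, 9.56, 9.38 and 4.64 CPM in aRG (2.18). Each bIP library was above each aRG library in SLC1A1 and SLC12A5. The exchanger SLC24A2 (3.44) rose, and the glutamine transporter SLC1A5 (-2.22) fell. Of 34 cadherin genes 12 rose and 6 fell. CELSR3 had 325, 417 and 345 CPM in bIP and 60.3, 79.4, 50.4 and 51.1 CPM in aRG (2.59), while CELSR1, its relative in the planar polarity pathway, had 24.0, 25.4 and 15.1 CPM in bIP and 168, 147, 194 and 182 CPM in aRG (-3.01). CELSR3 and CELSR1 did not overlap between the populations. CDH7 (2.50) and PCDH8 (2.74) rose and PCDH18 (-2.91) and CDH20 (-1.57) fell. The count called lower in the cadherins and protocadherins list was 3 without bIP library 2 or aRG library 1 and 2 without bIP library 1 or bIP library 3. With 1 library removed edgeR lost its call of CDH20 (adjusted p = 0.0563 to 0.0641 without bIP library 1 or 3). The log2 fold change of PCDH8 was 3.41 without aRG library 1.

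Of 42 tubulin and microtubule genes 14 rose and 3 fell (median 0.59). CDK5R1, the activator of the kinase CDK5 in neurons, had 188, 225 and 167 CPM in bIP and 37.6, 53.5, 42.3 and 46.8 CPM in aRG (2.10). TUBB6 had 2.09, 5.20 and 7.55 CPM in bIP and 72.3, 64.5, 38.3 and 84.7 CPM in aRG (-3.69), and TUBA1B (-1.90) fell too, although tubulin genes are close copies that can share reads. TUBA1A, of migrating neurons, was not called (0.48, adjusted p = 0.405), at 1829, 1745 and 2303 CPM in bIP and 949, 1074, 1053 and 2547 CPM in aRG, where library 4 of aRG was far above the other 3. Of 38 genes of actin and protrusions 6 rose and 5 fell (median 0.090). PALMD, a paralemmin relative, had 123, 159 and 118 CPM in bIP and 17.2, 8.85, 15.1 and 17.5 CPM in aRG (3.18). The populations were without overlap in CDK5R1, TUBB6 and PALMD. The kinases PAK5 (2.20) and PAK1 (1.10) rose, and MYO10 (-3.02) of filopodia, the formin DIAPH3 (-4.72) and EZR (-1.64), an apical membrane linker, fell. Called by edgeR with 1 library left out was TUBA1A without aRG library 4 (0.96, adjusted p = 0.0265).

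Ribosomal protein and respiratory chain genes held almost no called member. Of 73 ribosomal protein genes 1 fell, RPS15 (-0.71), and none rose by edgeR or DESeq2 (0 higher at an unadjusted p under 0.05, median -0.21). Their many pseudogenes can share reads. Of 51 respiratory chain genes edgeR called none (median -0.12), 2 being higher and 4 lower at an unadjusted p under 0.05, and DESeq2 called 2 lower. Of 27 genes of the primary cilium 3 fell and none rose by edgeR (1 higher at an unadjusted p under 0.05, 1 by DESeq2). Of 32 genes of glycolysis and hypoxia 3 rose and 4 fell. GAPDH had 164, 171 and 187 CPM in bIP and 269, 392, 364 and 645 CPM in aRG (-1.26), and the glucose transporter SLC2A1 (-1.95) and lactate transporter SLC16A1 (-1.98) fell, while HK1 (0.84) and PFKFB3 (1.85) rose. Of 30 genes of lipid synthesis 2 rose and 2 fell. The called share was 11.1% in the cilium list, 21.9% in glycolysis and hypoxia and 13.3% in lipid synthesis, beside 18.4% of all tested genes. In the glycolysis and hypoxia list the number called higher was 1 without aRG library 1. Called lower in the lipid synthesis list were 0 without bIP library 1 or bIP library 2. Removal of 1 library took the edgeR adjusted p above the threshold in RPS15 (adjusted p = 0.0646 to 0.158 without bIP library 1, 2 or 3 or aRG library 1, 2 or 4) and HK1 (adjusted p = 0.0517 to 0.103 without bIP library 1 or 2 or aRG library 1, 3 or 4).

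Genes of protein folding and of apoptosis were lower where they were called. The called share was 24.1% in protein folding and 14.8% in apoptosis, beside 18.4% of all tested genes called and 9.98% called lower. Shares near those over all genes are not read as a result about a list. Of 29 genes of protein folding 7 fell and none rose by edgeR or DESeq2 (0 higher at an unadjusted p under 0.05, median -0.52). SERPINH1, the collagen chaperone, had 5.52, 9.22 and 5.84 CPM in bIP and 58.9, 80.1, 108 and 115 CPM in aRG (-3.72), and HSPB1 (-2.49) and PDIA6 (-2.10) fell. Of 27 genes of the apoptosis list 4 fell and none rose by edgeR or DESeq2 (0 higher at an unadjusted p under 0.05). SERPINH1 did not overlap between bIP and aRG. Of 21 immediate early genes (9.52% called), NR4A3 (2.31) rose and EGR1 (-1.39) fell, and JUN had -0.50 (adjusted p = 0.515). In the insulin and mTOR list 4 of 33 rose and 2 fell, with 18.2% called, close to the share over all genes. PIK3CD (2.05) was among the rises, and IGFBP2 (-1.77) and IGFBP4 (-2.54) were the falls. The count called lower in the unfolded protein and heat shock list was 3 without bIP library 1, bIP library 2 or bIP library 3. In the insulin and mTOR list the number called higher was 2 without bIP library 2. Leaving out 1 library ended the edgeR call of PDIA6 (adjusted p = 0.0676 without bIP library 1) and EGR1 (adjusted p = 0.0622 to 0.176 without bIP library 1 or 3 or aRG library 1, 2, 3 or 4).

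**Figure D5:**
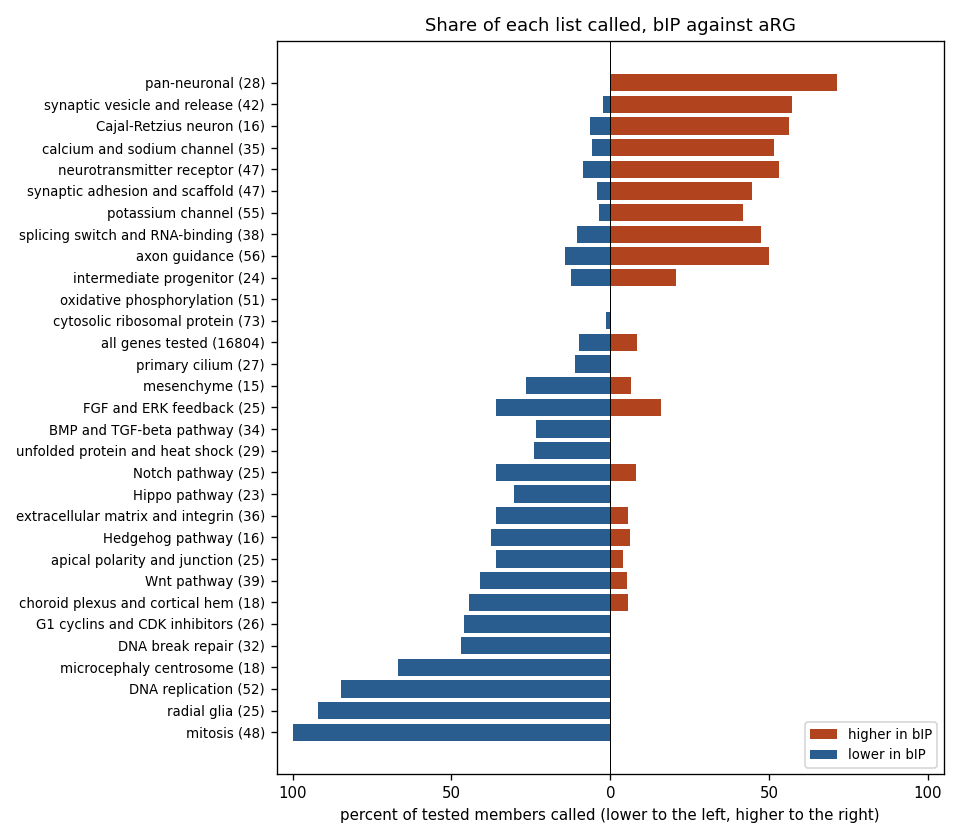
Percent of the tested members of each list that were called higher (to the right) or lower (to the left) in bIP, with all genes tested for comparison and the number tested in brackets. Cell cycle and radial glia lists reach furthest to the left and neuronal lists furthest to the right of the all-gene bars of 8.47% and 9.98%.

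Markers of other cell types were read in the same libraries. Of 18 choroid plexus and cortical hem genes tested, 8 fell and 1 rose in bIP, and 9 were not called. Their sum was 389 to 521 CPM in bIP and 1901 to 8181 CPM in aRG. TTR alone made up most of that sum in each aRG library. TTR, the secreted transthyretin of choroid plexus, had 66.9, 145 and 245 CPM in bIP and 5049, 1541, 7626 and 3834 CPM in aRG (-4.89), with aRG library 2 the lowest of aRG. OTX2 had 5.52, 3.61 and 6.02 CPM in bIP and 58.9, 23.7, 75.2 and 33.6 CPM in aRG (-3.24), and the folate receptor FOLR1 (-4.27) fell as well. The ligands RSPO2 (-1.93) and WNT8B (-1.87) of this list also belong to the Wnt genes and BMP7 to the BMP genes, and the part of choroid plexus and hem RNA in those falls was not tested. Of 12 eye genes 1 fell, DCT (-1.31), and none rose by edgeR or DESeq2 (0 higher at an unadjusted p under 0.05). That share of 8.33% lay below the 18.4% of all tested genes called and the 9.98% called lower. Summed over the eye genes the level was 57.3, 52.0 and 46.9 CPM in bIP libraries 1 to 3 and 71.5, 130.0, 97.4 and 63.9 CPM in aRG libraries 1 to 4, highest in library 2 of aRG. Called lower in the choroid plexus and cortical hem list were 5 without bIP library 1, bIP library 2 or aRG library 4. Without 1 library edgeR no longer called RSPO2 (adjusted p = 0.0528 to 0.0860 without bIP library 1, 2 or 3 or aRG library 1, 3 or 4), WNT8B (adjusted p = 0.0506 to 0.121 without bIP library 1, 2 or 3 or aRG library 3 or 4) and DCT (adjusted p = 0.0549 to 0.125 without bIP library 1, 2 or 3 or aRG library 3 or 4).

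Interneuron genes were mixed: of 14 tested, CALB2 rose and 3 fell, MEIS2 (-2.22) and SP8 (-2.63) among them. GAD1, which makes GABA, had 14.8, 18.9 and 11.5 CPM in bIP and 2.89, 11.0, 3.73 and 3.09 CPM in aRG (1.54, adjusted p = 0.0889). Summed over that list the level was 251 to 267 CPM in bIP and 403 to 567 CPM in aRG. All of GAD1's bIP values lay above its aRG values. Microglia and endothelial genes were low. In the blood, vessel and glial lists 8.33% to 20.0% of the tested members were called, beside 18.4% of all tested genes. Microglia genes summed to 39.3 to 63.5 CPM in bIP and 48.6 to 64.1 CPM in aRG, with CD68 at 0 in all bIP libraries, and P2RY12 (-1.79) was the single fall of 9 tested. Endothelial genes summed to 37.2 to 48.4 CPM in bIP and 69.4 to 144 CPM in aRG, with CLDN5 (-5.19) the single fall of 12. In both lists none rose by edgeR or DESeq2 or at an unadjusted p under 0.05. Of 13 tested genes of other brain regions (7.69% called) TCF7L2 (-1.12) fell and none rose by edgeR or DESeq2 (0 higher at an unadjusted p under 0.05). Astrocyte genes summed to 229.8 to 356 CPM in bIP and 157 to 256 CPM in aRG, and GFAP (-1.42) and GJA1 (-1.54) fell out of 10. None of that list rose by edgeR and 1 rose by DESeq2, and edgeR called 1 higher without aRG library 1 or 2. The count called lower in the astrocyte list was 0 without bIP library 1, bIP library 2 or aRG library 3. Oligodendrocyte lineage genes held 1 rise, GPR17 (2.82), and 1 fall, CNP (-0.82), among 10. Of 13 neural crest and placode genes edgeR and DESeq2 called none, with 1 lower at an unadjusted p under 0.05, and of 9 pluripotency genes neither called any, with none at that p. POU5F1, the pluripotency factor, had 8.96, 11.3 and 8.45 CPM in bIP and 4.88, 8.14, 13.7 and 8.56 CPM in aRG. The edgeR call was lost with 1 library removed in P2RY12 (adjusted p = 0.0526 without bIP library 2), TCF7L2 (adjusted p = 0.0752 without bIP library 2), GFAP (adjusted p = 0.0556 to 0.0772 without bIP library 1 or 2 or aRG library 3), GJA1 (adjusted p = 0.0535 to 0.0974 without bIP library 1, 2 or 3 or aRG library 1 or 3), GPR17 (adjusted p = 0.0616 to 0.131 without bIP library 2 or 3 or aRG library 2, 3 or 4) and CNP (adjusted p = 0.0590 to 0.0961 without bIP library 1, 2 or 3 or aRG library 1 or 2). Called by edgeR with 1 library left out was GAD1 without aRG library 2 (2.21, adjusted p = 0.0193).

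Between bIP and the neurons few genes were called, which does not show that the other genes were alike. EdgeR called 19 genes (0.113% of those tested), all 19 higher in bIP, and DESeq2 called 172, 169 higher and 3 lower. Among the 19 were Cajal-Retzius genes: RELN averaged 2048 ± 1001 CPM in bIP and 64.1 ± 12.9 CPM in N (SD, n = 3 and 2), 5.00 on the log2 scale of bIP over N (edgeR adjusted p = 0.00297). LHX1 (5.82 over N), LHX5 (4.14) and TP73 (4.85) were called too. EOMES averaged 6.26 ± 0.677 CPM in N and was called higher in bIP (3.77 over N, SE 0.68, edgeR adjusted p = 0.0334). So bIP stood above N in EOMES, below bRG (-2.11 over bRG, edgeR adjusted p = 0.00617), and was not called against aRG. CXCR4 (5.23 over N) and OTX2 (4.48 over N) were also higher in bIP than in N. TBR1 averaged 315 ± 71.3 CPM in bIP and 368 ± 60.6 CPM in N and was not called (-0.22 over N, adjusted p = 0.950). These calls rest on 2 neuron libraries, 1 of them numbered as no neuron label is. Without neuron library 1 edgeR called 2 genes, LHX1 and TP73, and without the unnumbered library it called none, with adjusted p of 0.0704 to 0.961 for the 7 genes named here before TBR1. Without bIP library 1 or 2 LHX5 (adjusted p = 0.0684 to 0.0772) and EOMES (0.102 to 0.137) were not called against N. The call of EOMES below bRG held in each removal of a bIP or bRG library (edgeR adjusted p = 0.00752 to 0.0316).

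Against basal radial glia, edgeR called 2804 genes (16.7% of those tested), 1386 higher (8.25%) and 1418 lower (8.44%) in bIP. These values share the bIP libraries with the comparison above and are given side by side. SLC1A3 was at -5.94 over bRG and -6.12 over aRG, and GRIA2 at 3.81 over bRG and 3.80 over aRG. MKI67 was at -4.52 over bRG and -6.19 over aRG, its mean being 14.0 ± 8.94 CPM in bIP, 321 ± 94.5 CPM in bRG and 1022 ± 319 CPM in aRG (SD, n = 3, 4 and 4). NEUROD4 was at -3.31 over bRG and -2.64 over aRG.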

How the data were processed

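RNA-seq libraries of sorted organoid populations were read from 2 tables of counts deposited by the authors, raw whole-number read counts per gene symbol. STAR and hg38 are named in the submitters' processing notes, and gorGor6 is known from the second table's name. No source used here gives the counter, the annotation or the strand setting, so overlapping and antisense genes cannot be told apart. Genes were kept by filterByExpr (minimum count 10), scaled by TMM and tested with edgeR 4.0.16 in R 4.3.3. One quasi-likelihood fit held all 13 libraries with a mean per population, and p-values were adjusted by Benjamini-Hochberg over all 16804 genes tested. The SE is the log2 fold change divided by the root of F. The fit was tested before use on simulated counts, in which far fewer genes were changed than were called here. It missed most of the 2-fold changes there, a rate that need not hold for these data. A gene without a call may still differ.

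The 58 gene lists held 1554 genes, of which 25 had no row in the hg38 table and 1508 were tested. Lists and members were chosen with earlier results of these data known, and no set test was run. Named genes are the 15 largest called rises and falls whose log2 CPM averaged 4 or more and whose populations did not overlap, the smallest adjusted p in each direction, and in each list up to 4 called members per direction, members called against the majority, all members of lists of at most 20, and 4 uncalled members of high level. Other names are said to be chosen after their values were seen. Counts of libraries of a population differed beyond counting error (chi-square per degree of freedom 10.6 to 45), so each was counted as a library of its own. A row without a gene name, 0.00351% to 0.00768% of the gorGor6 counts, was left out. One neuron column has a number missing from the neuron labels and was used by its population only. Alternatives were DESeq2 1.42.0, its size factors, other filters, the gorGor6 table, fewer libraries, a replicate block, a split by library number and a 2-fold threshold. Promoter sequences were not analysed here. Results of some genes of these lists are not reported here.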

Additional observations from a re-analysis of the deposited data

Results flagged for a closer look

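Each named gene was examined for a library of the 4 aRG libraries that lay far from the other 3, by Dixon's ratio of gap to range. Of 284 genes 26 had such a library, and chance alone flags about 1 in 20 groups. All values are CPM in the named aRG library, with the range of the other 3 aRG libraries after it. Groups of 3, such as bIP, cannot be examined in this way.

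Library 4 of aRG was high in TROAP at 1001.1 (others 471.14 to 543.08), in KIFC1 at 227.3 (105.76 to 118.16) and in PBK at 223.17 (69.221 to 77.359). ACTL6A was at 80.507 (33.243 to 36.967), HDAC1 at 180.7 (129.36 to 136.62), SOX9 at 294.09 (158.29 to 170.37) and TUBA1A at 2547.4 (949.04 to 1074.3). FLRT2 was low there, at 50.613 (82.384 to 83.069).

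Library 2 of aRG was high in UNC79 at 34.112 (14.432 to 15.797), UNC13A at 47.386 (10.723 to 14.535) and GAD1 at 10.99 (2.8907 to 3.7339). FGF9 was at 42.391 (10.819 to 12.827), ARHGEF2 at 123.6 (92.155 to 96.476) and CDK6 at 62.23 (30.733 to 35.591). RSPO2 was low there, at 14.987 (57.091 to 59.375).

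Library 1 of aRG was high in PIF1 at 880.75 (550.08 to 558.08), TCF7L1 at 315.08 (183.98 to 206.37), RBPJ at 472.44 (308.44 to 333.75), ITGA2 at 263.05 (158 to 166.21), PCNT at 353.74 (199.62 to 225.65), NFIA at 2864.8 (1986.6 to 2095.8) and GPR17 at 0.72266 (0.20616 to 0.28722). Library 3 of aRG was low in GAS1 at 43.754 (67.226 to 71.745), BMPR1B at 45.573 (60.922 to 63.595) and ID4 at 311.64 (472.86 to 498.61), and high in EGR1 at 31.595 (17.73 to 18.983).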

How the results depend on the processing

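Between bIP and aRG the count of 3100 calls stayed within 1.5 times under DESeq2 (3820), DESeq2 size factors in edgeR (3142), no filter (3039), a minimum of 1 CPM in 3 libraries (3118), the gorGor6 table (3102), the 7 libraries alone (4126), without bRG library 3 (4126) and with numbers 1 and 2 against 3 and 4 as a term (3515). Against a 2-fold change glmTreat called 1170, 445 higher and 725 lower, by construction fewer. With 1 bIP or aRG library left out 2250 to 2847 genes were called, 1000 to 1266 higher and 1196 to 1581 lower, and 1872 calls (60.4%) held in all 7 removals. With gorGor6 counts, 77.6% of the calls tested there had the same sign and a call. The replicate block gave 3260 calls and kept 92.6% of the 3100. Equal numbers were not taken to pair libraries, since the correlations of their deviations were 0.04, 0.098 and 0.143, and not every library correlated best with its own number. The numbers did share a split, however. Pairs of a bIP and an aRG library within numbers 1 and 2 or within 3 and 4 all correlated positively (0.04 to 0.212). Pairs across that split all correlated negatively (-0.218 to -0.049). With the split as a term 98.3% of the 3100 calls were kept, and its cause was not tested.

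Where no rise was called, other edgeR settings called 1 G1 regulator (the 7 libraries alone, without bRG library 3), 1 apoptosis gene (without bRG library 3) and 1 cilium gene (the 7 libraries alone, the number term), and 1 to 3 respiratory chain genes were called lower. Of 58 lists 38 had a median below 0, and 35 to 38 when 1 library was left out. Between bIP and N, DESeq2 called 172 genes (169 higher and 3 lower), and 0 to 33 genes, all higher, were called with 1 bIP or N library left out. Between bIP and bRG 1932 to 3090.0 genes, 960.0 to 1640.0 higher and 944 to 1594 lower, were called with 1 library left out. Removals of N and bRG libraries were chosen after seeing the data. The cause of these shifts was not tested.

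Over 284 named genes, 4566 of 4820 values under an alternative kept their direction and side of the threshold, 213 lost the call, 22 gained it and 19 changed sign, all of these in genes without a call. ORC4 was 0.07 with the replicate block and 0.16 with the number term, PCNT -0.02 and 0.00, and POU5F1 -0.49 in the gorGor6 table. With 1 library left out the log2 fold change of INSM1 ran from -1.83 to 0.03, ORC3 from -0.32 to 0.02, ORC4 from -0.66 to 0.12, PCNT from -0.03 to 0.28, NIN from -0.03 to 0.37, PTBP2 from -0.24 to 0.25 and POU5F1 from -0.08 to 0.41.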

Other observations

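No gene of the hg38 table lies on chromosome X or Y in the RefSeq gorilla assembly (0 of 16328 matched symbols), so X-linked genes were read in the gorGor6 table alone, in which 8.05% of 38520 tested genes were called. A list of 46 X-linked neural and cell cycle genes, all without a row in the hg38 table, had 45 tested members, of which 8 rose and 11 fell in bIP (median 0.02). DCX, a microtubule protein of migrating neurons, had 458, 478 and 381 CPM in bIP and 86.8, 123, 58.4 and 77.2 CPM in aRG (2.34, edgeR adjusted p = 4.13e-06). The vesicle protein SYP (2.32), the adhesion protein L1CAM (2.95), the AMPA receptor subunit GRIA3 (1.82), BEX2 (1.76) and BEX5 (3.32) were among the other rises.

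The mitotic kinesin KIF4A had 2.11, 0.773 and 1.34 CPM in bIP and 103, 56.4, 44.4 and 116 CPM in aRG (-5.85). In DCX and KIF4A no bIP library fell within the aRG range. The progenitor factor SOX3 (-5.55), the glypicans GPC3 (-2.45) and GPC4 (-4.10), the membrane linker MSN (-2.87), TIMP1 (-3.19), HMGB3 (-1.51), the centromere gene CENPI (-2.41), the DNA polymerase gene POLA1 (-1.67) and IL1RAPL1 (-1.50) were among the other falls. FMR1, an RNA-binding protein of neurons, had -0.15 (edgeR adjusted p = 0.921). The list was put together with earlier results of these data known.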
